A study of Mus musculus with 13 samples.

Results

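The immunity-related GTPases (IRG) and the guanylate-binding proteins (GBP) are families of large GTP-hydrolysing enzymes that interferon switches on in mouse cells. The IRG genes Iigp1, Irgm1, Irgm2, Igtp and Tgtp1 and the GBP genes Gbp2, Gbp3, Gbp5, Gbp6 and Gbp7 were followed here in Yumm1.7 cells, a mouse cutaneous melanoma line. They were found by matching the Ensembl identifiers of the count table, without version, to member symbols of the GENCODE M21 annotation of GRCm38. All 10 symbols had a row, of 54532 genes in the table.

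IRG proteins act at the membrane of vacuoles that hold parasites or bacteria. Effector IRGs coat and rupture that membrane, while regulatory IRGs sit on the cell's own membranes and keep the effectors inactive there. GBPs assemble on vacuoles and on bacteria in the cytosol, and several of them promote inflammasome activation. Their genes are classical targets of interferon-γ, in part through IRF1, and they also respond to type I interferon, which acts through the interferon-stimulated response element (ISRE).

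The sequence before the members' starts is shown first, and its link to their levels was not tested. RefSeq windows of GRCm38.p6, from 250 bases before to 50 bases after a start, were at hand for 8 of the 10 members. Iigp1 and Gbp6 had no entry. The ISRE-like letters GAAA, any 2 bases and GAAA again, on either strand, occurred in a window of all 8 members, against 3.99% of 27025 genes and 3.44% of 32851 windows. The letters TTCNNNGAA, like the gamma-activated site (GAS) of interferon-γ targets, occurred in 5 of 8 members, against 9.55% of genes. Overlapping ISRE-like matches were shown as 1 run, and no GAS-like match of a member overlapped an ISRE-like match. The sequences below run 5′ to 3′ on the gene's strand, and capitals mark the ISRE-like match in 5 members.
Gbp2: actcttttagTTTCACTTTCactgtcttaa
Gbp3: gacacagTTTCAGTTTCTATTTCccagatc
Gbp5: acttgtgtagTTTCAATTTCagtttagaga
Gbp7: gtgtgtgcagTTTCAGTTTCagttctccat
Irgm1: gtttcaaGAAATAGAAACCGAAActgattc
These lie at chr3:142620594-142620623 (+), chr3:142559992-142560021 (+), chr3:142496759-142496788 (+), chr3:142530273-142530302 (+) and chr11:48871428-48871457 (−), in that order. Between the match and the RefSeq start, which can differ from the gene bounds of GENCODE, lay 49 bases in Gbp2, 29 in Gbp3, 155 in Gbp5, 43 in Gbp7 and 14 in Irgm1.

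The other 3 IRG windows held a GAS-like match 2 bases before the ISRE-like match, and both are in capitals. Such neighbours, at most 5 bases apart in either order, were found in 12 of 32851 windows.
Tgtp1: ccatTTCCAGGAAtcGAAACTGAAAccta
Igtp: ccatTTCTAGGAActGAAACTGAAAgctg
Irgm2: ccatTTCCAGGAActGAAACTGAAAgctg
They lie at chr11:48992310-48992338 (−), chr11:58199507-58199535 (+) and chr11:58214898-58214926 (+). Igtp and Irgm2 were identical at 28 of these 29 bases, Tgtp1 and Irgm2 at 25, and Tgtp1 and Igtp at 24. A match is a description of letters and not a measured binding site.

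In GRCm38, Gbp5 (start 142493978), Gbp7 (142530342), Gbp3 (142560026) and Gbp2 (142620602) follow each other on the plus strand of chromosome 3. Irgm1, Tgtp1, Igtp and Irgm2 lie on chromosome 11, Gbp6 on chromosome 5 and Iigp1 on chromosome 18. All 10 are annotated as protein coding, and counts cover their exons. Igtp and Irgm2 overlap on the same strand, and 162 exon bases belong to both. Tgtp1 shares 73.1% of its stretches of 100 bases with other genes, mostly with Tgtp2. Gbp6 shares 64.5%, mostly with Gm43302 and Gbp10, and 1726 of its exon bases overlap Gm43302. Counts of Tgtp1, Gbp6, Igtp and Irgm2 are therefore uncertain, and 637 exon bases of Gbp7 overlap Gm43802.

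RNA of Yumm1.7 cells, whose genotype is labelled WT, was sequenced in 13 libraries, 1 per condition. Total RNA came from cells given DMSO, 10 μM of the ADAR1 inhibitor ADAR1i-124 for 12 h, 1 μM of the DNA demethylating agent 5-AZA-CdR for 72 h, or their combination. ADAR1 is the enzyme that edits adenosine to inosine in double-stranded RNA. For each of the 4 treatments, RNA was also precipitated with J2, an antibody to double-stranded RNA, and with Z22, an antibody to Z-form RNA, after digestion with RNase I. An IgG precipitation served as the control, and the treatment of its cells is not given. The combination is described as 5-AZA-CdR first and then ADAR1i-124, at the doses and times used alone, which the labels of the precipitated libraries do not repeat. The combination library of total RNA was left out because its counts follow the opposite strand, which left 12 libraries. DMSO libraries are shared by the comparisons with both compounds, and each combination library is shared by its comparisons with either compound alone. With 1 library per condition, no difference between treatments has a replicate check.

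Total counts were 17015425 to 34571822 in the 3 total RNA libraries and 8167960 to 15324595 in the precipitated ones. The locus Gm42418, which overlaps ribosomal RNA sequence, took 34.9% of the counts of the Z22 DMSO library, 10.6% to 18.9% in the other precipitated libraries and 0.0299% to 0.334% in total RNA. That library also had the fewest genes with a count, 18991, and scaling by totals moved the median of all genes by 0.81 to 1.06 (log2) in its comparisons. Adar had 233 CPM (the library's counts scaled to a total of 1e6) in total RNA with DMSO, 58.9 CPM with ADAR1i-124 and 198 CPM with 5-AZA-CdR. Of 10 melanocyte markers, 1 (Mitf) reached 1 CPM in total RNA, and Mlana, Tyr and Tyrp1 had 0 counts in all 3 libraries. The cells are called melanoma cells by their label, not by these markers. Of 12 leukocyte markers 4 reached 1 CPM, with Cd3e, Cd3d, Ms4a1 and Nkg7 at 0 counts, and their summed level ran from 8.87 to 82.8 CPM, of which Cd68 gave up to 75.4 CPM. Of 6 fibroblast and endothelial markers 5 reached 1 CPM, and their summed level ran from 74.4 to 519 CPM.

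Most members were well covered in cells given DMSO, with Tgtp1 (55 counts) and Gbp6 (21 counts) the exceptions. Together they made up 1019 CPM of total RNA with DMSO, 644 CPM from the IRGs and 375 CPM from the GBPs. Per kb of exon, Irgm1 led with 57.7 CPM per kb, followed by Gbp3 with 41.2. Igtp (32.1), Irgm2 (29.4), Gbp2 (28.8) and Gbp7 (26.5) came next, and the 95% counting intervals of neighbours in this run overlapped. Iigp1 stood at 22.7 CPM per kb, below them. Gbp5 (2.79), Tgtp1 (1.01) and Gbp6 (0.207) were far lower, each apart from its neighbour. With 5-AZA-CdR the order changed at the top, where Gbp2 had 47.1 CPM per kb, Gbp3 40.5 and Irgm1 37.2, with intervals that did not overlap. These orders use merged exon length, and with the longest transcript Iigp1 had 42.4 CPM per kb in the DMSO library in place of 22.7.

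**Figure D1:**
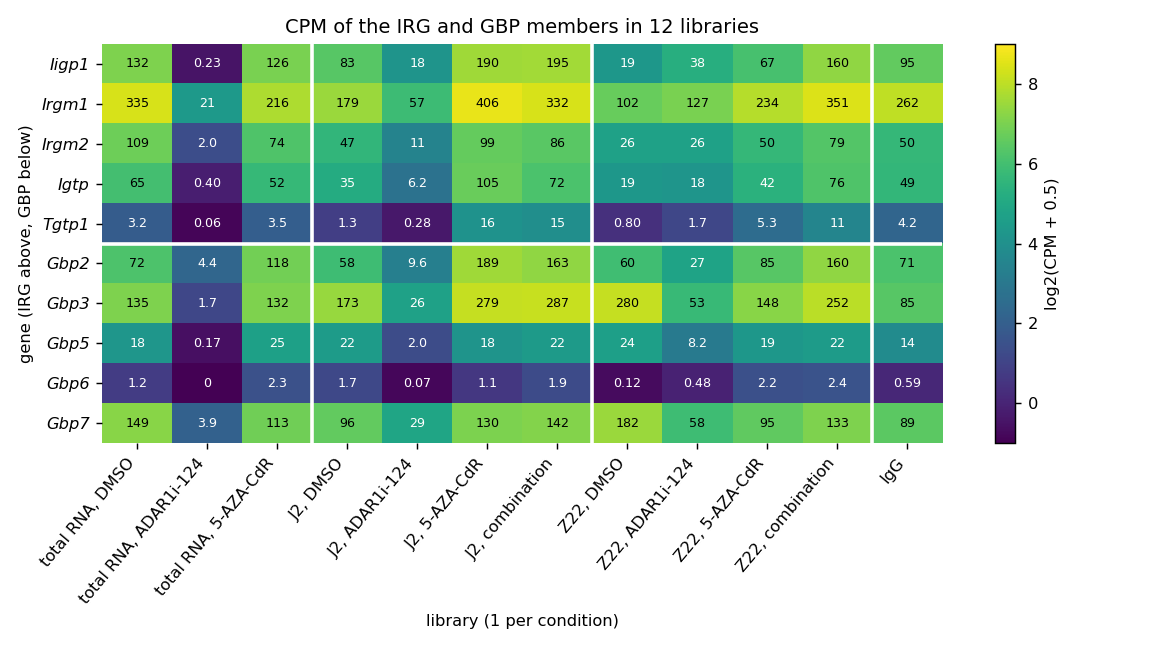
CPM of the 10 members (rows, IRGs above the line and GBPs below it) in the 12 libraries (columns, total RNA, J2, Z22 and IgG), with the CPM printed in each cell and its colour showing log2(CPM + 0.5). Every member has its lowest value in the ADAR1i-124 column of total RNA, from 0 CPM for Gbp6 to 20.8 CPM for Irgm1.

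Whether ADAR1i-124 changes the interferon-inducible GTPases was read from total RNA first. All 10 members were lower with the inhibitor, by 16.1-fold to 583-fold where a ratio could be formed, and their summed level was 33.6 CPM against 1019 CPM with DMSO. Irgm1, Irgm2 and Igtp are the regulatory IRGs. Irgm1 had 5700 counts (335 CPM) with DMSO and 366 counts (20.8 CPM) with ADAR1i-124, a 16.1-fold lower level (95% counting interval 14.5 to 18.0). Irgm2 went from 1847 to 36 counts, 53.1-fold lower (38.2 to 76.1), and Igtp from 1104 to 7 counts, 163-fold lower (79.0 to 407). Irgm1 thus kept the highest level of all members in the inhibitor library, 3.58 CPM per kb, as it had with DMSO.

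The effector IRGs were at or near the detection floor of 3 counts (0.170 CPM in that library). Iigp1, whose protein coats the vacuole of Toxoplasma, had 2252 counts with DMSO and 4 with ADAR1i-124, 583-fold lower (227 to 2141), the largest ratio among the members. Tgtp1, another vacuole-coating IRG, had 55 counts and 1 count, 56.9-fold lower (9.80 to 2290). A shortage of cells with these transcripts and less RNA per cell cannot be told apart in such bulk libraries.

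The GBPs of chromosome 3 followed. Gbp2, which targets pathogen vacuoles, had 1232 counts with DMSO and 77 with the inhibitor, 16.6-fold lower (13.2 to 21.1). Gbp3 had 2291 and 30 counts, 79.1-fold lower (55.2 to 117), and Gbp7 had 2530 and 68 counts, 38.5-fold lower (30.3 to 49.8). Gbp5, known for promoting the NLRP3 inflammasome, had 315 and 3 counts, 109-fold lower (36.9 to 530). Gbp6 had 21 counts with DMSO and 0 with ADAR1i-124, at least 7.25-fold lower against the floor of 3 counts per library, while its 95% counting interval reaches down to 5.39-fold. Irgm1 and Gbp2 had the smallest ratios with enough counts to bound them, and their intervals overlapped.

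A member or gene was measured in a comparison when both libraries averaged 1 CPM or more. Of 9 measured members, 9 were at least 2-fold lower and none was higher, where 10.3% of 13693 genes were lower and 8.85% higher. Iigp1, Igtp, Tgtp1 and Gbp5 were under 1 CPM with the inhibitor and were measured only through the DMSO library, so the count and the median are descriptions. The median log2 change, on the log2(CPM + 0.5) scale that understates low genes, was -5.10 (96.1% interval between members -6.19 to -3.90), against -0.09 for all genes. Under the other scalings of the libraries the median stayed between -5.10 and -5.00. Intervals of single genes reflect counting error alone, since reads carried no molecular identifiers and need not be separate molecules.

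**Figure D2:**
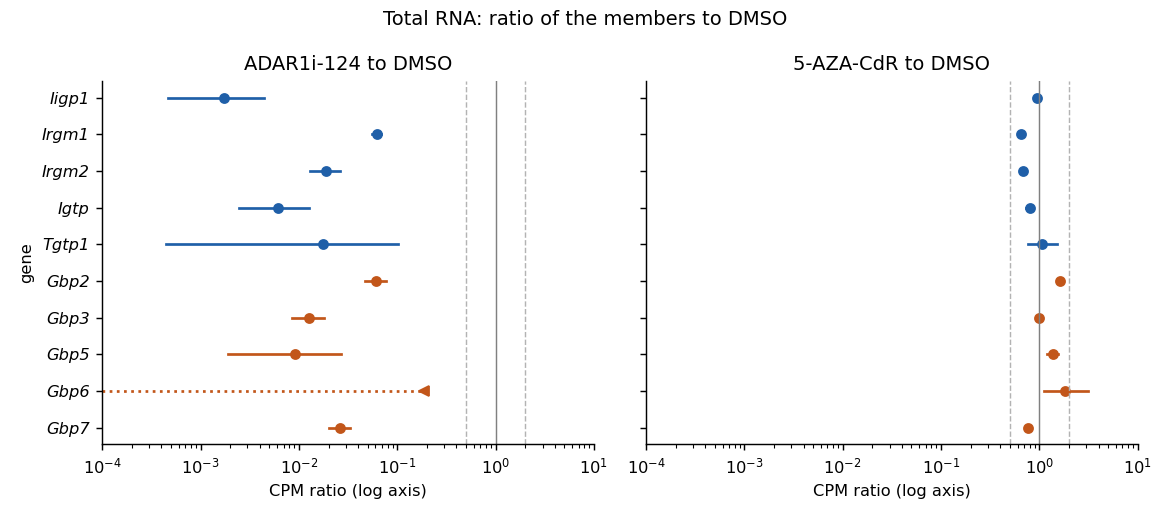
Ratio of CPM to DMSO in total RNA (log axis) for ADAR1i-124 (left) and 5-AZA-CdR (right), 1 library per condition, with exact 95% counting intervals as lines, IRGs in blue and GBPs in orange; dashed lines mark 2-fold and the triangle and dotted line for Gbp6 mark the upper limit of a ratio whose numerator is 0 counts. The round points on the left lie between 0.00172 for Iigp1 and 0.0620 for Irgm1, while those on the right lie between 0.646 and 1.83.

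The rest of the family and interferon-linked genes were read from lists. Of 18 other IRG and GBP genes, 13 passed the minimum, and 12 of them were at least 2-fold lower with ADAR1i-124 in total RNA, with a median log2 change of -3.24. The largest changes were those of Gm4951 (596 counts and 1 count), F830016B08Rik (452 and 2), Tgtp2 (384 and 2), Gbp9 (1879 and 44) and Gbp4 (579 and 16). Irgq was the exception, with 28.1 CPM with DMSO and 49.9 CPM with the inhibitor. Most of the 13 were under 1 CPM with the inhibitor and were measured only through the DMSO library, so their count and median are descriptions. Reads of Tgtp2 and Tgtp1 may be exchanged, but both were lower.

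Among interferon-linked genes, Irf1, a transcription factor of interferon responses, had 47.1 CPM with DMSO and 13.1 CPM with the inhibitor. Nlrc5, an activator of MHC class I genes, had 96.6 and 33.2 CPM. Irf8 and Socs1 did not pass the 2-fold line, at 7.41 and 4.99 CPM and at 1.82 and 1.31 CPM. In the type I interferon list 4 of 8 genes were lower, namely Stat2 (16.2-fold), Irf9 (8.57-fold), Irf7 (98.2-fold) and Usp18 (185-fold), a feedback regulator of the receptor. Tyk2, a receptor kinase, had 18.9 CPM with DMSO and 29.4 CPM with the inhibitor. All 16 type I interferon-stimulated genes were lower, with a median of -4.84, beside 10.3% of 13693 genes. Among them were Ifi44 (675-fold, 4564 and 7 counts), Oasl2 (191-fold), Mx2 (128-fold, 989 and 8 counts), Ifit3 (95.2-fold) and Isg15 (80.3-fold). Some of the 16, Ifi44 and Mx2 among them, and also Irf7 and Usp18 were under 1 CPM with the inhibitor. Those genes were measured only through the DMSO library, so the counts and the median are descriptions.

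Genes that act beside the GTPases were read as lists in total RNA too. Of 13 genes for ATG8 conjugation and vacuole targeting, through which IRGs and GBPs are loaded onto vacuoles, 1 was higher and 1 lower, and the median was 0.23. The autophagy adaptor Sqstm1 had 708 CPM with DMSO and 2312 CPM with ADAR1i-124, and the antibody receptor Trim21 had 35.1 and 2.38 CPM. Atg7, Gabarapl1 and Map1lc3a stayed inside the 2-fold line. Of 6 measured inflammasome genes 2 were higher, Nlrp3 (10 and 96 counts) and Aim2 (43 and 110 counts), and 3 were lower. Over all 13693 measured genes, 8.85% were higher and 10.3% lower. Il18 (105 and 13 counts) and Casp1 (240 and 85 counts) were among the lower ones, and the pore protein gene Gsdmd had 19.4 and 23.8 CPM. Nlrp3 was under 1 CPM with DMSO and Il18 with the inhibitor. Each was measured only through the library where it is high, so its place in the count is a description. Among markers of other cells, Cd68 had 8.29 and 19.5 CPM, Pdgfra 5.23 and 25.4 CPM and Cdh5 3.70 and 17.8 CPM. Pdgfrb was lower, at 169 and 30.6 CPM, and the part of these markers in the result was not tested.

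With 5-AZA-CdR the members of total RNA were close to DMSO. None of 10 passed the 2-fold line, beside 18.8% of 14391 genes that were higher and 9.96% that were lower. The median change was -0.05 (97.9% interval -0.54 to 0.67), against 0.06 for all genes. Within the line, the regulatory IRGs were lower, Irgm1 by 1.55-fold (1.50 to 1.60), Irgm2 by 1.46-fold (1.37 to 1.55) and Igtp by 1.26-fold (1.16 to 1.35). Gbp2 had 72.4 CPM with DMSO and 118 CPM with 5-AZA-CdR, a ratio of 1.64 (1.53 to 1.74), and Gbp5 had a ratio of 1.37 (1.20 to 1.56). Gbp7 had a ratio of 0.761 (0.724 to 0.800), while Iigp1 (126 CPM) and Gbp3 (132 CPM) were within 1.05-fold of DMSO. Tgtp1 (120 counts) and Gbp6 (78 counts) had ratios of 1.07 (0.774 to 1.51) and 1.83 (1.12 to 3.12).

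The inflammasome list stood otherwise in this comparison. Of 6 inflammasome genes all 6 were at least 2-fold higher with 5-AZA-CdR, beside 18.8% of 14391 genes. Among them were Aim2 (2.53 and 56.6 CPM) and Nlrp3 (0.588 and 10.7 CPM), which sense DNA and cell damage. Nlrp3 was under 1 CPM with DMSO and was measured only through the 5-AZA-CdR library, so its place in the count is a description. Of 14 measured other family genes 3 were higher, Gbp9 at 110 and 241 CPM among them, and 1 was lower, shares near those of all genes. Of 16 type I interferon-stimulated genes 13 were inside the 2-fold line (median -0.26), and of 13 genes for ATG8 conjugation and vacuole targeting 12 were (median 0.30). Irf8 was 2.57-fold higher, Socs1 3.45-fold and Nlrc5 2.02-fold. Some markers of other cells were higher in the same library. With DMSO and 5-AZA-CdR, Pdgfra had 5.23 and 150 CPM and the endothelial Cdh5 3.70 and 81.1 CPM. The fibroblast Dcn had 0.411 and 129 CPM, and Cd68 had 8.29 and 75.4 CPM. Pdgfrb stayed inside the 2-fold line, at 169 and 156 CPM. Their part in the result was not tested.

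In J2-precipitated RNA the inhibitor library again held less of the members. Their summed level was 697 CPM with DMSO and 159 CPM with ADAR1i-124. It was 1432 CPM with 5-AZA-CdR and 1316 CPM with the combination. In the same order of treatments, Iigp1 had 83.1, 17.6, 190 and 195 CPM, and Irgm1 had 179, 57.4, 406 and 332 CPM. Gbp3 had 173, 26.0, 279 and 287 CPM, and Gbp2 had 58.3, 9.59, 189 and 163 CPM. In all 4 genes the ADAR1i-124 library was the lowest and the 5-AZA-CdR and combination libraries were the highest. Gbp5 and Gbp6 did not share that order. Gbp5 had 21.8, 2.01, 17.6 and 21.5 CPM, highest with DMSO. Gbp6 had 1.72, 0.0695, 1.05 and 1.95 CPM, lower with 5-AZA-CdR than with DMSO.

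Of 8 members that passed the minimum, 8 were at least 2-fold lower in J2 RNA with ADAR1i-124 than with DMSO, where 12.6% of 13522 genes were lower and 8.79% higher. The median was -2.31 (99.2% interval -3.15 to -1.63), against 0.00 for all genes. Gbp5 (266 and 29 counts) had the largest ratio among them, 10.8-fold lower (7.37 to 16.5), and Irgm1 the smallest, 3.12-fold (2.88 to 3.39). Tgtp1 (16 and 4 counts) and Gbp6 (21 counts and 1 count) were under the minimum, and both were lower. For each of the 9 members with a ratio in total RNA the ratio in J2 RNA was nearer to 1, a difference that was not tested. The summed leukocyte markers ran from 7.43 to 62.6 CPM over the J2 libraries and the fibroblast and endothelial ones from 42.2 to 140 CPM. With ADAR1i-124 against DMSO 2 of 2 measured leukocyte markers were lower (Cd68 by a log2 change of -3.11), and 3 of 4 fibroblast and endothelial markers were (Pdgfra by -3.23, median of the 4 -1.61). Their part in the result was not tested. Of the lists of genes that act beside the GTPases, 4 of 6 inflammasome genes were lower and none higher (median -1.93), as were 4 of 13 for ATG8 conjugation and vacuole targeting (median -0.64).

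With 5-AZA-CdR against DMSO in J2 RNA, 6 of 10 members were at least 2-fold higher and none was lower, where 1402 of 14007 genes (10%) were higher and 7.37% lower. All 5 IRGs were among them, with ratios of 2.10 for Irgm2 (1.90 to 2.32) to 12.5 for Tgtp1 (7.55 to 22.3). Of the GBPs, Gbp2 passed the line at 3.24 (2.98 to 3.52). Gbp3 (1.61), Gbp7 (1.36), Gbp5 (0.806) and Gbp6 (0.611) did not. Igtp had 35.2 CPM with DMSO and 105 CPM with 5-AZA-CdR, and Tgtp1 had 16 and 219 counts. The median over the 10 members was 1.12 (97.9% interval -0.30 to 1.69), so the interval between members held 0. Both measured leukocyte markers were lower in this comparison (Cd68 by a log2 change of -1.71), and of 4 fibroblast and endothelial markers Cdh5 was over 2-fold higher and Pdgfra lower (-1.95). Their part in the result was not tested.

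In Z22-precipitated RNA the members did not share 1 order of libraries. Iigp1 had 19.1 CPM with DMSO, 38.5 CPM with ADAR1i-124, then 66.8 CPM with 5-AZA-CdR and 160 CPM when both were given, and Irgm1 had 102, 127, 234 and 351 CPM. Gbp3 had 280, 53.1, 148 and 252 CPM, and Gbp7 had 182, 58.5, 94.8 and 133 CPM. The DMSO library was the lowest for Iigp1 and Irgm1 and the highest for Gbp3 and Gbp7. Irgm2 had 25.8 CPM with DMSO and with ADAR1i-124, then 49.5 and 79.0 CPM, and Igtp was lowest with ADAR1i-124, at 18.0 CPM. Gbp2 had 59.9, 27.2, 84.7 and 160 CPM. Gbp5 had its highest level with DMSO, 24.2 CPM, and Tgtp1 and Gbp6 their lowest, 0.802 and 0.115 CPM. The DMSO library also has the high share of Gm42418, and these orders by CPM depend on the scaling. By totals without Gm42418, the IRG median for ADAR1i-124 against DMSO was -0.07 in place of 0.32. Beyond such other scalings, the part of that share in the result was not tested.

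For ADAR1i-124 against DMSO in Z22 RNA, 2 of 9 measured members were at least 2-fold higher, Iigp1 and Tgtp1 (25 and 7 counts, a ratio of 2.13 with an interval of 0.894 to 5.82), and 4 were lower, Gbp2, Gbp3, Gbp5 and Gbp7. Tgtp1 was under 1 CPM with DMSO and was measured only through the inhibitor library. Over all measured genes 45.7% of 12799 genes were higher and 5.89% lower, and the median of all genes was 0.81. Relative to that median the IRGs were at -0.49 and the GBPs at -2.37 as medians, and the members together at -0.89. Gbp3 was 5.28-fold lower in CPM (4.87 to 5.73) and Gbp7 3.11-fold lower (2.86 to 3.38). The 4 GBPs were lower under every scaling tried. The IRG median was 0.32 by library totals but between -0.54 and -0.07 by the other scalings, under which no member was 2-fold higher, so the direction of the IRGs depends on the scaling.

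With 5-AZA-CdR against DMSO in Z22 RNA, 5 of 10 members (Iigp1, Irgm1, Igtp, Tgtp1 and Gbp6) were at least 2-fold higher and none was lower, beside 54.8% of 13716 genes that were higher and 4.63% that were lower. The IRG median was 1.20 and the GBP median -0.31, where the median of all genes was 1.06. By edgeR's TMM factors and by DESeq2's size factors 2 members were higher and 3 lower, and the IRG medians were 0.24 and 0.13 and the GBP medians -1.26 and -1.37. The GBP median was below that of all genes under each scaling. Gbp6 (1 count and 18 counts) and Tgtp1 (7 and 43 counts) were under 1 CPM with DMSO and were measured only through the 5-AZA-CdR library, so their place in the count is a description. Of markers of other cells, 2 of 4 fibroblast and endothelial ones (median 0.54) and 1 of 1 leukocyte marker (1.38) were at least 2-fold higher. The part of these markers in the result was not tested.

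**Figure D3:**
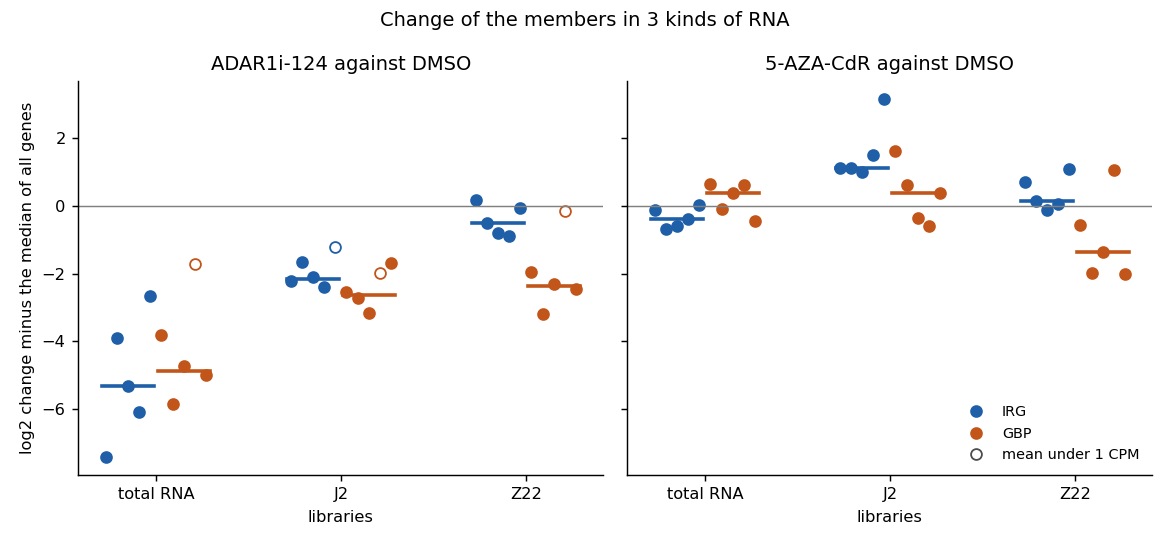
Log2 change of CPM + 0.5 against DMSO minus the median change of all measured genes, for ADAR1i-124 (left) and 5-AZA-CdR (right) in total RNA, J2 and Z22 libraries; each point is 1 member, open where its mean is under 1 CPM, and bars are family medians of the members that passed. With ADAR1i-124 both families lie below 0 in total RNA and J2, while in Z22 the IRG median is -0.49 and the GBP median -2.37.

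The share of the GBPs among the members' counts describes this without any scaling between libraries. It was 76.6% in the Z22 DMSO library (95% exact binomial interval 75.6 to 77.7), and 64.8% came from Gbp3 and Gbp7 alone. In the other 11 libraries it ran from 30.1% in total RNA with ADAR1i-124 (26.4 to 33.9) to 50.3% in J2 RNA with DMSO (49.2 to 51.4). The 3 other Z22 libraries lay between 41.2% and 46.8%, within the 42.1% to 50.3% of J2 but for the lowest. Z22 DMSO stood apart in which of the members it held, while their sum was 713 CPM, against 697 CPM in J2 DMSO.

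**Figure D4:**
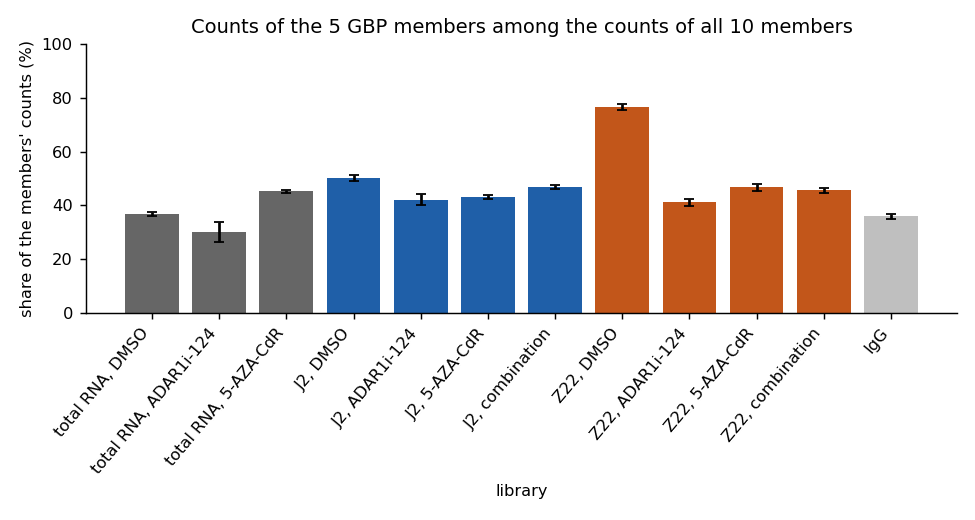
Share of the 5 GBP members among the counts of all 10 members (percent) in each of 12 libraries, with exact 95% binomial intervals for counting error; total RNA in dark grey, J2 in blue, Z22 in orange and IgG in light grey. The Z22 DMSO bar reaches 76.6%, and the others lie between 30.1% and 50.3%.

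Adding the inhibitor to 5-AZA-CdR left the members of J2 RNA near their level with 5-AZA-CdR alone. None of 10 passed the 2-fold line, where 2.89% of 14196 genes were higher and 1.20% lower. The median was -0.05 (97.9% interval -0.29 to 0.28), with Igtp the lowest at a ratio of 0.691 (0.634 to 0.753) and Gbp6 the highest at 1.86 (0.916 to 3.90). In Z22 RNA the same comparison gave 2 of 10 higher, Iigp1 at 2.39 (2.16 to 2.64) and Tgtp1 at 2.12 (1.47 to 3.10), where 3.22% of 14365 genes were higher and 9.86% lower. That count was 5 by TMM, 4 by DESeq2's factors, 4 by totals without the 20 highest genes and 3 by totals without Gm42418. The median was 0.72 (97.9% interval 0.19 to 1.02), against -0.18 for all genes, and all 10 members were above 0 under each scaling. Gbp2 had 84.7 CPM with 5-AZA-CdR and 160 CPM with the combination in Z22 RNA, a ratio of 1.89 (1.72 to 2.07). In that comparison 2 of 5 measured fibroblast and endothelial markers (median 0.42) and 1 of 3 leukocyte markers (median 0.50) were at least 2-fold higher. Their part in the result was not tested.

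Against ADAR1i-124 alone, the combination libraries held more of every member. In J2 RNA 10 measured members were at least 2-fold higher, where 16.1% of 13971 genes were higher and 6.71% lower, with a median of 3.28 (97.9% interval 2.26 to 4.02) against 0.11 for all genes. Ratios ran from 4.86 for Gbp7 (4.36 to 5.42) to 53.5 for Tgtp1 (20.5 to 199), the latter on 175 and 4 counts. Tgtp1 and Gbp6 (23 counts and 1 count) were measured there only through the combination library, and by TMM or DESeq2's factors 9 members were measured and 9 were higher. In Z22 RNA 10 were at least 2-fold higher as well, where 11.6% of 13708 genes were higher and 7.31% lower, with a median of 1.82 (97.9% interval 1.37 to 2.40). There Gbp7 had the smallest ratio, 2.27 (2.08 to 2.48), and Tgtp1 the largest, 6.54 (4.19 to 10.6), and Gbp6 (22 and 7 counts) was measured only through the combination library. The total RNA of the combination was not used, so the members' overall level in those cells is not known from these values. Markers of other cells were higher in these comparisons as well, 3 of 4 measured fibroblast and endothelial markers in J2 RNA (median 2.74) and 2 of 4 in Z22 RNA (median 0.83), with 1 of 1 and 2 of 2 leukocyte markers. Their part in the result was not tested.

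Precipitated RNA was also set beside total RNA of the same treatment, a comparison that the preparation of the libraries enters. With DMSO the members had a median log2 ratio of -0.65 in J2 and -1.52 in Z22, against -0.36 and -1.18 for all genes. In J2 none of 10 was 2-fold higher and 2 were lower, Irgm2 and Tgtp1, where 6.75% of 13696 genes were higher and 19.5% lower. In Z22 Gbp3 was higher, at 280 CPM against 135 CPM, and the 5 IRGs were lower, Tgtp1 (0.802 and 3.23 CPM) measured only through total RNA, where 7.31% of 13192 genes were higher and 56.6% lower. With ADAR1i-124 the 8 measured members were at least 2-fold higher in J2 RNA than in total RNA, where 6.07% of 13475 genes were higher and 16.8% lower, and the median was 2.45 against -0.30 for all genes. In Z22 RNA 8 measured members were higher too, where 5.69% of 13435 genes were higher and 14.2% lower, with a median of 3.73 against -0.30. Iigp1 had 0.227 CPM in total RNA, 17.6 CPM in J2 RNA and 38.5 CPM in Z22 RNA of that treatment, and Gbp3 had 1.70, 26.0 and 53.1 CPM. Iigp1, Igtp and Gbp5 were under 1 CPM in total RNA and were measured only through the precipitated libraries, so these counts and medians are descriptions. With 5-AZA-CdR the medians were 0.63 in J2 and -0.28 in Z22, against -0.37 and -0.20 for all genes. Igtp, Tgtp1 and Gbp3 were 2-fold higher in J2 and Gbp6 was lower (14 and 78 counts), where 5.99% of 14542 genes were higher and 21.5% lower. In Z22 no member passed, where 8.40% of 14813 genes were higher and 16.1% lower.

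The IgG library gives the members' share of counts in RNA precipitated with neither J2 nor Z22. That share was 720 CPM, more than J2 RNA with DMSO or ADAR1i-124. The mean log2 ratio of J2 to IgG over 4 treatments had a median of -0.13 over the members (97.9% interval -0.44 to 0.45), against 0.04 for all genes. By treatment the members' median was -0.15 for DMSO, -2.30 for ADAR1i-124, 0.98 for 5-AZA-CdR and 0.90 for both compounds, so the mean joins libraries of opposite sign. The mean's median was 0.58 without the ADAR1i-124 library, -0.52 without 5-AZA-CdR and -0.53 without the combination. For Z22 the median was -0.18 (97.9% interval -0.60 to 0.44), against -0.16 for all genes, and -0.64 without the combination.

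Gbp3 was the member with the highest mean ratio to IgG for both antibodies, 0.69 with J2 and 0.85 with Z22. It exceeded the all-gene median in 3 of 4 libraries of each antibody, with ADAR1i-124 the exception. Irgm1 and Igtp had the lowest mean with J2, both -0.44, and Iigp1 with Z22, -0.83. Over the 5 IRGs the median was -0.14 with J2 and -0.54 with Z22, and over the 5 GBPs -0.06 and 0.33. Whether ratios between treatments and the single IgG library compare like with like cannot be told, since the treatment of its cells is not given.

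**Figure D5:**
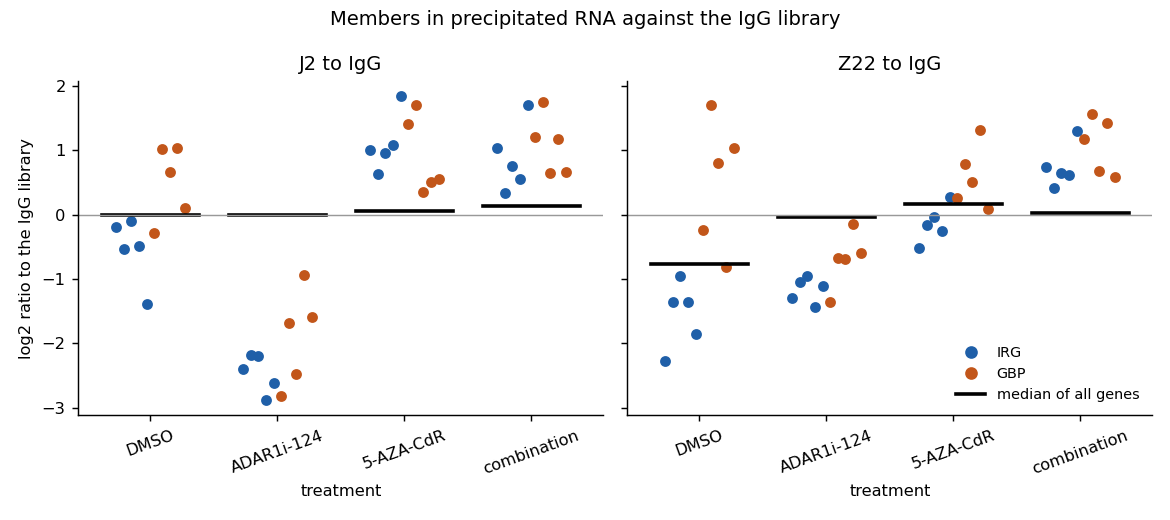
Each member's log2 ratio of CPM + 0.5 against IgG in J2 (left) and Z22 (right) libraries by treatment; IRGs in blue, GBPs in orange, and black bars for the median of all genes. With ADAR1i-124 in J2 all 10 members lie below 0, at a median of -2.30, and with the combination all 10 lie above 0.

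Z22 and J2 were compared over 4 libraries each, with treatment as a block, by edgeR's quasi-likelihood test with Benjamini-Hochberg adjustment over 15647 genes. This is the only comparison with 4 libraries on each side, but they are 4 treatments with 1 library each and not replicates. The libraries of 1 treatment may come from the same RNA, so its p-values cover the spread between these libraries only. A difference between Z22 and J2 that varies with treatment is part of that spread. No member was called and no gene of the table was (0% of genes in either direction), while 3319 genes had an unadjusted p under 0.05, of which none was a member. DESeq2 called 611 genes higher and 280 lower in Z22, with none of the 9 members it tested. Gbp5 came closest, with a log2 difference of 0.72 (SE 0.325) and an edgeR adjusted p of 0.243, and it was higher in Z22 in 4 of 4 treatments. Iigp1 had the lowest difference, -0.52 (SE 0.421, edgeR adjusted p = 0.484), and was higher in Z22 with ADAR1i-124 alone. Leaving out the DMSO libraries, edgeR called 618 genes higher and 251 lower, and still no member.

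Across the 12 libraries the members varied together. Pearson's r of log2(CPM + 0.5) had a median of 0.97 over the 10 IRG pairs (0.83 to 0.99), 0.91 over the 10 GBP pairs (0.62 to 0.98) and 0.88 over the 25 mixed pairs (0.67 to 0.96). Irgm2 and Igtp, which share exon bases, had the highest IRG value, and Gbp6, the member with the fewest counts, entered the lowest GBP value. Among 8881 other genes that averaged 10 CPM or more, those most like the summed level of the members were Ifih1, Dhx58, Oas1b, Parp14 and Trim30a, each at r = 0.99. These libraries share treatments and differ in depth and preparation, so the values are descriptive.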

How the data were processed

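Total and precipitated RNA of Yumm1.7 cells was sequenced as paired reads of 150 bases after removal of ribosomal RNA. The authors aligned the reads with STAR within snakePipes to GRCm38 (mm10 in the labels) and deposited raw counts per gene. The counting tool and strand setting are not given in the sources used here. Conditions came from the labels.

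Counts were divided by library totals (CPM), and 0.5 CPM was added before log2. A gene counted in a comparison when its mean was at least 1 CPM. Single ratios have exact 95% counting intervals, lists have order-statistic intervals of their median, and a detection floor of 3 counts bounds ratios against 0. GENCODE M21 gave positions to 54495 genes, and 37 were not matched. edgeR 4.0.16 tested Z22 against J2 after TMM scaling, at an adjusted p of 0.05, with DESeq2 1.42.0 in R 4.3.3 as an alternative. Python 3.11.15 with pandas 2.3.3 and scipy 1.17.1 did the rest, and the calculations were tested on simulated counts. Lists had at most 5 genes named, those with the largest change with either compound in total RNA. Members and lists were chosen with earlier results of these data known. No column lacked a sample. Protein sequences were not analysed here. Alternatives covered scaling, pseudocounts, minimums, fold lines, the uncertain members, protein-coding genes alone, exon length and leaving out treatments. One regulator and the list it belongs to are not reported here.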

Additional observations from a re-analysis of the deposited data

Results flagged for a closer look

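Iigp1 went opposite ways with ADAR1i-124 in total RNA and in Z22 RNA, with log2 changes of -7.51 and 0.99, a difference of -8.50. It also did so in J2 and Z22 RNA, with changes of -2.21 and 0.99, a difference of -3.20. Tgtp1 did so in total RNA and Z22 RNA, with changes of -2.74 and 0.76, a difference of -3.50. The Z22 side rests on 25 and 7 counts, and the counting interval of its ratio, 0.894 to 5.82, includes no change. Each side is 1 library against 1, so none of these differences was tested. The higher levels in Z22 rest on the DMSO library of Z22, and relative to the median of all genes they are 0.18 for Iigp1 and -0.05 for Tgtp1.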

How the results depend on the processing

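Of the counts and medians recomputed under other scalings, pseudocounts, minimums and gene sets, 174 stayed within their margin, while 19 moved and 2 reversed. Of the values of single genes 214 stayed and 104 moved. For medians that margin is the interval between members, which is wide in Z22 RNA. There the members' median with 5-AZA-CdR against DMSO was 1.02, but 0.07 by TMM, -0.04 by DESeq2's factors and 0.09 without Igtp, Irgm2, Tgtp1 and Gbp6, and with ADAR1i-124 it was -0.08, but -0.92 by DESeq2's factors and -1.31 without those 4. The other exceptions follow, and where no construction explains them the cause was not tested. By TMM and by DESeq2's size factors, the Z22 comparison of 5-AZA-CdR with DMSO kept 5 members past the 2-fold line but turned from 5 higher to 2 higher and 3 lower. With a minimum mean of 5 CPM, 3 of 8 members passed there. For the combination against 5-AZA-CdR in Z22 RNA, 5 members passed by TMM, 4 by DESeq2's factors and 4 by totals without the 20 highest genes, in place of 2. Fold lines moved counts by construction. At 1.5-fold there were 3 members in total RNA with 5-AZA-CdR, 1 in J2 with the combination against 5-AZA-CdR, 8 in Z22 with 5-AZA-CdR and 6 in Z22 with the combination against 5-AZA-CdR. At 4-fold there was 1 in J2 with 5-AZA-CdR, 1 in Z22 with ADAR1i-124, 2 in Z22 with 5-AZA-CdR, 0 in Z22 with the combination against 5-AZA-CdR and 6 against ADAR1i-124. With total RNA in place of IgG the median ratio was 0.53 for J2 and 0.64 for Z22. Leaving out 1 treatment gave -0.53 to 0.58 for J2 and -0.64 to 0.15 for Z22. Totals without Gm42418 alone, chosen after seeing the data, gave 3 members higher and 2 lower in Z22 with 5-AZA-CdR. Between Z22 and J2, edgeR on all genes with a count called 851 genes higher and 623 lower, and without the combination 1 and 1, with 0 members called in each. The labels give no replicate numbers to pair. Without the treatment block edgeR called 0 genes between Z22 and J2 (1629 at an unadjusted p under 0.05), as it did with the block. Depth limits Tgtp1 and Gbp6, which had at most 219 and 78 counts.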
